A study of Mus musculus with 141 samples.

Results

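Granulocyte/monocyte progenitors (GMP) of mouse bone marrow were divided by their own level of Gata2, and the cells with Gata2 were set against the cells with little or none. GMP with at least 100 CPM of Gata2 (counts scaled to 1e+06 nuclear-encoded counts of the cell) are called Gata2-positive, and GMP under 100 CPM are called Gata2-low. The filters kept 41 of the 47 GMP, out of 141 cells in the series, and left 18 Gata2-positive and 23 Gata2-low cells. The level of Gata2 chose the sides, so Gata2 is a description and not a result. It ran in the Gata2-positive cells between 106 and 2144 CPM with a median of 369 CPM, and in the Gata2-low cells between 0 and 55.8 CPM with a median of 2.01 CPM. The cells nearest the threshold were GMP 2 inside it, at 106 CPM, and GMP 9 and GMP 15 outside it, at 55.8 and 42.9 CPM. The number after GMP is the replicate number of a cell.

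Each sample was a single cell. Per the labels all came from female C57BL/6 mice, 3 in all, with no treatment and no genetic change named. Per the labels' gates, GMP were live cells without lineage markers, positive for Kit and CD34, negative for Sca1 and high for CD16/32, taken outside the gate of the basophil/mast cell progenitors (BMCP). BMCP, of which 94 were sorted and 89 kept, were high for integrin beta7 and CD16/32. No label ties a cell to a mouse, so each side is 1 sample. No test, standard error or p-value could be given, and limits printed beside a level cover counting error only.

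Gata2 is a zinc finger transcription factor that binds the DNA letters GATA. It acts in stem and early progenitor cells and is required for the mast cell and basophil lineages. Gata1, its relative, serves red cells, megakaryocytes, mast cells, basophils and eosinophils. Granulocyte/monocyte progenitors are defined by their neutrophil and monocyte offspring, and are known to be a mixture in which single cells already lean to 1 lineage.

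The sides were similar in depth. Gata2-positive cells held a median of 1341838 nuclear-encoded counts per cell (lowest 130191, highest 2595936), against 1243740 in Gata2-low cells (402637 to 3688848). The median number of genes with a read was 6898.5 in Gata2-positive and 7062 in Gata2-low cells. Spike-in reads were a median of 6.68% in Gata2-positive and 5.90% in Gata2-low cells, and mitochondrial counts were 5.99% and 7.63%. GMP 8, a Gata2-positive cell, stood apart with 130191 counts and 30.2% spike-in reads. All 41 cells carried the myeloperoxidase gene Mpo at 509 CPM or more, and Kit, Cd34 and the CD16 gene Fcgr3 summed to 304, 521 and 435 CPM in Gata2-positive and 345, 845 and 407 CPM in Gata2-low cells. The labelled population therefore carried the genes of its gate on both sides.

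Of 10515 genes with at least 5 CPM in the pooled reads of the 41 cells, Gata2 left out, 1702 were at least 2-fold higher in Gata2-positive cells, which is 16.2%, and 1662 were at least 2-fold lower, which is 15.8%. The value used is the log2 of summed CPM plus 1 in Gata2-positive over Gata2-low cells, and its median over these genes was -0.02. Scaled to spike-in reads in place of counts, that median was -0.37, so ratios just above 0 by CPM are negative on that scale. A gene read in few cells is high on the side that holds those cells, so levels in single cells are given with the sums. When each of the 41 cells was left out in turn, 715 genes stayed at least 2-fold higher every time, which is 6.80% of the genes, and 946 stayed at least 2-fold lower, which is 9.00%. A difference that stays past 2-fold in this way is called stable to leaving out a cell. A gene with under 5 CPM on 1 side can pass the filter only through the other side, so its direction is set by the filter.

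The gene list common to basophils and mast cells was higher in Gata2-positive cells. Of its 12 members 11 passed the filter on low values. Of these, 8 were at least 2-fold higher and none 2-fold lower, where all genes gave 16.2% and 15.8%. Ms4a2, Cyp11a1, Il1rl1 and Alox5 passed the filter only through Gata2-positive cells, so their direction is set by it. Cpa3, Slc18a2, Lmo4 and Hgf were past 5 CPM on both sides. The list median was 3.70 against -0.02 over all genes. Over all 12 members, with no filter, the median was 3.53. Of the 11, 7 were higher and stable to leaving out a cell, where all genes gave 6.80%. Those 7 include the genes whose direction the filter set. Hgf was not stable, at 0.86 without GMP 45. Summed over the list, a Gata2-positive cell held a median of 5474 CPM (1189 to 15782) and a Gata2-low cell 2388 CPM (1085 to 4705). The ranges overlap, and Srgn and Hdc were read widely on both sides.

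Cpa3 encodes mast cell carboxypeptidase A, a granule protease found in mast cells and basophils. It stood at 1.95, 1581 and 4706 CPM in Gata2-positive cells (lowest, median, highest) and at 0.868, 5.73 and 629 CPM in Gata2-low cells. It passed 100 CPM in 13 of 18 Gata2-positive cells and in 6 of 23 Gata2-low cells, and 12 Gata2-positive cells were above the highest Gata2-low cell. The summed level was 1869 CPM (Poisson limits 1852 to 1886) against 108 CPM (104 to 112), a log2 ratio of 4.10. The Gata2-low cells above 100 CPM were GMP 15, 16, 26, 29, 36 and 46, and GMP 16, the highest of them, held no read of Gata2.

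Ms4a2, the beta chain of the high-affinity IgE receptor, was either high or nearly absent. It stood between 795 and 2581 CPM in 7 Gata2-positive cells (GMP 3, 8, 12, 20, 21, 24 and 30), at 2.4 CPM or less in the other 11, and at 4.71 CPM or less in all 23 Gata2-low cells. No cell of either side lay between these levels. After each cell was thinned to 200000 reads, at least 10 reads of Ms4a2 were found in 6 of 17 Gata2-positive cells (95% Clopper-Pearson limits 14.2% to 61.7%) and in 0 of 23 Gata2-low cells (up to 14.8%). These limits cover the number of cells counted and not differences between mice, and GMP 8 was too shallow to be thinned. The summed levels were 619 and 0.804 CPM, a log2 ratio of 8.42. The receptor's alpha chain gene Fcer1a had no read in any of the 41 cells, while the gamma chain gene Fcer1g, shared with other Fc receptors, was at 339 CPM in Gata2-positive and 265 CPM in Gata2-low cells.

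The promoters of these 2 genes are shown because Cpa3 had the largest ratio under the rule of size given further on and Ms4a2 had no cell between its high and its low levels. Each window runs from 250 bases before to 50 bases after the start of the gene, is from RefSeq on GRCm38.p6, and is written along the gene's strand. Capitals mark 4 motifs on either strand, the first being AGATAA, the next AGATAG, then TGATAA and at last TGATAG. Cpa3 lies on the minus strand at chr3:20242132-20242431 and Ms4a2 on the minus strand at chr19:11623670-11623969.
Cpa3: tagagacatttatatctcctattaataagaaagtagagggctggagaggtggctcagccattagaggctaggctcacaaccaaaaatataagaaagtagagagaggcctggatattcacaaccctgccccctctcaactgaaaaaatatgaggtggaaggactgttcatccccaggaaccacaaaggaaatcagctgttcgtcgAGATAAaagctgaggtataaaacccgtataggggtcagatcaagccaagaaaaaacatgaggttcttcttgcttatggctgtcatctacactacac
Ms4a2: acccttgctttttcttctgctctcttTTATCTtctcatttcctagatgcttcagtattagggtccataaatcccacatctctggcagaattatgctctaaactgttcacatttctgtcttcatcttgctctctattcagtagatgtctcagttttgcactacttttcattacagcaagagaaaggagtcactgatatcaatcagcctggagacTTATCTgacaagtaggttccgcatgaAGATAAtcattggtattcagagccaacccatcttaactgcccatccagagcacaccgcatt
Cpa3 holds 1 such match, 46 bases before the start, and Ms4a2 holds 3, at 224, 37 and 11 bases before it. Of 32851 promoter windows of the same length, 29.8% hold at least 1 match. A match describes letters and is no evidence of binding, and Ms4a2 was chosen for printing after its values were seen.

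**Figure D1:**
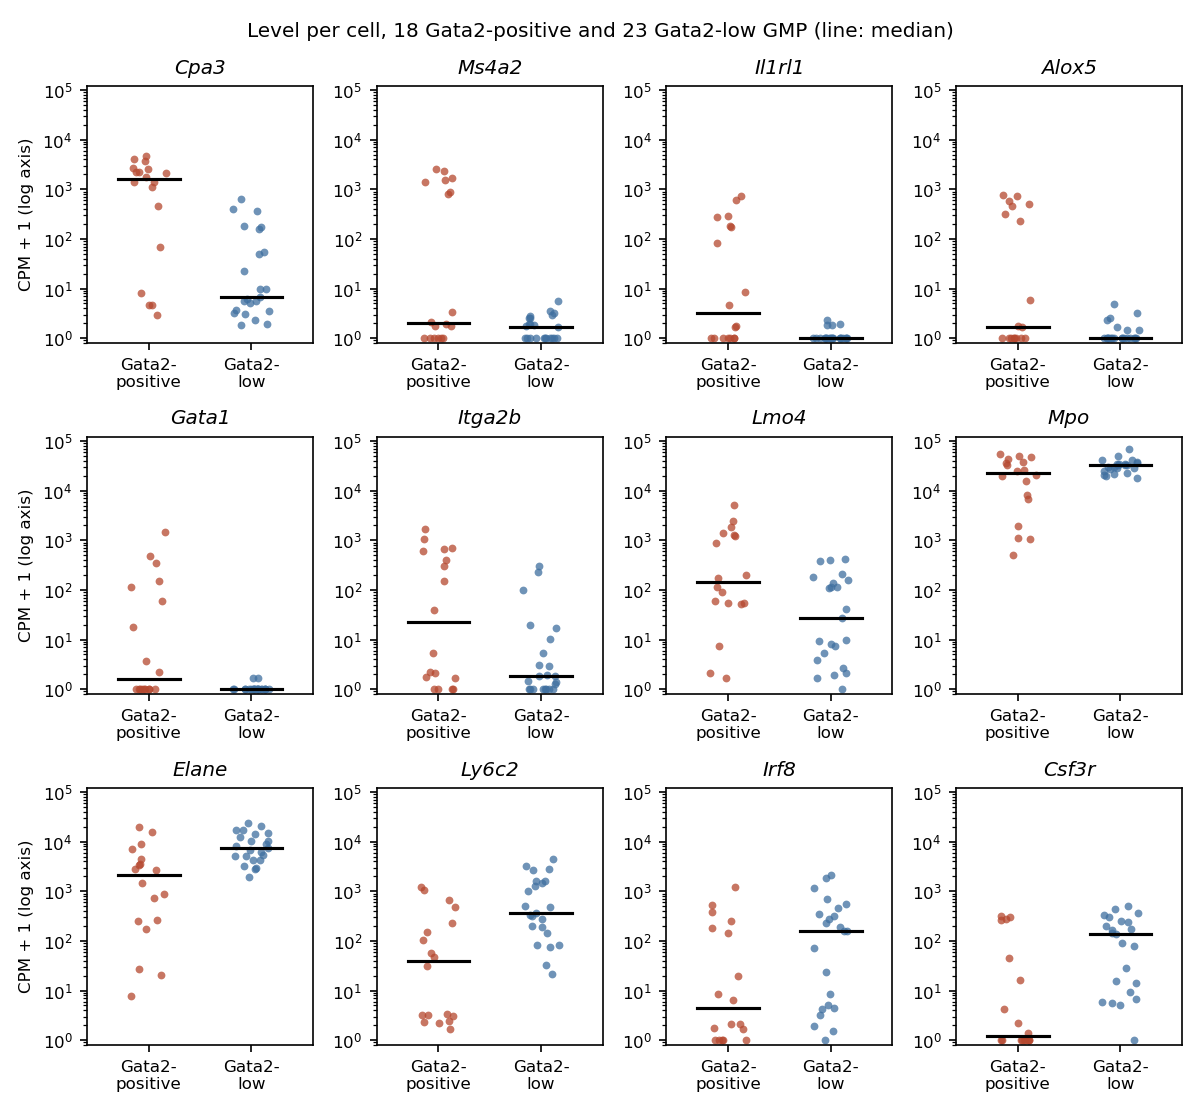
Level of 12 genes in each cell (CPM plus 1, log axis), with 18 Gata2-positive GMP on the left and 23 Gata2-low GMP on the right of each panel, 1 point per cell and a line at the median. Ms4a2, Il1rl1, Alox5 and Gata1 are high in 5 to 7 Gata2-positive cells and in no Gata2-low cell, while Mpo and Elane reach lower in Gata2-positive cells.

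Il1rl1, the receptor for interleukin-33, and Alox5, the lipoxygenase that starts leukotriene synthesis, shared the pattern of Ms4a2. Il1rl1 passed 100 CPM in 6 Gata2-positive cells, with 733 CPM at most, and its highest level in a Gata2-low cell was 1.34 CPM. Alox5 passed 100 CPM in 7 Gata2-positive cells, with 776 CPM at most, against 3.81 CPM at most in Gata2-low cells. Of the 7 cells with Ms4a2 above 100 CPM, 5 also passed 100 CPM of Il1rl1 and 5 of Alox5. GMP 34 carried Il1rl1, at 276 CPM, and Alox5, at 313 CPM, without a read of Ms4a2, and GMP 31 carried Alox5 alone of the 3, at 228 CPM.

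The amine genes were less sharply divided. Slc18a2, the vesicular transporter that loads histamine and serotonin into granules, was above 100 CPM in 8 Gata2-positive and 2 Gata2-low cells and reached 2707 and 205 CPM, with sums of 279 and 26.4 CPM. Hdc, the enzyme that makes histamine, was above 100 CPM in all 18 Gata2-positive cells (158 to 1982 CPM) and in 11 of 23 Gata2-low cells (0.669 to 1361 CPM). Its medians over cells were 579 and 88.7 CPM, but its sums of 678 and 393 CPM differed by less than 2-fold. GMP 46 alone gave 41.1% of the Gata2-low reads of Hdc.

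Lmo4, a LIM-only cofactor that joins transcription complexes, was read on both sides but at different heights. Above 100 CPM stood 10 cells of each side, yet 7 Gata2-positive cells, the same 7 that carried Ms4a2, lay between 882 and 5184 CPM and no Gata2-low cell passed 422 CPM. Sums were 850.2 and 64.6 CPM, a log2 ratio of 3.70. Serglycin (Srgn), the proteoglycan core of many blood cell granules, was at 2756 and 2002 CPM and was within 2-fold. Cyp11a1, a steroid-making enzyme read in mast cells and basophils, was at 59.8 and 0.129 CPM, but GMP 3 gave 90.4% of its reads and the sum without that cell was 6.19 CPM. Hgf, hepatocyte growth factor, had sums of 61.9 and 22.8 CPM and a higher median in Gata2-low cells, at 0.439 and 0.763 CPM.

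Of 8 genes listed for basophils alone, 4 passed the filter: Mcpt8, Prss34, Il6 and Cd200r3. Prss34, Il6 and Cd200r3 passed it only through Gata2-positive cells, so their direction is set by the filter and gives no count for the list. Over all 8 members, with no filter, the median was 1.12, and Il4, Ccl3 and Itga2 had negative ratios. The basophil protease Mcpt8 was above 100 CPM in 6 of 18 Gata2-positive and 8 of 23 Gata2-low cells. GMP 3 held 2464 CPM and 75.2% of the Gata2-positive reads, and without it the log2 ratio was 0.36 in place of 2.25. Prss34, another basophil protease, was high in GMP 12 and GMP 34, at 223 and 188 CPM, and its highest Gata2-low level was 2.31 CPM. Interleukin-6 (Il6) was high in GMP 24 and GMP 3, at 247 and 100.2 CPM. The basophil surface receptor Cd200r3 was at 733 CPM in GMP 20 and 46.3 CPM in GMP 12 and had no read in Gata2-low cells, so that the summed level was at least 173-fold higher in Gata2-positive cells than the floor of 3 counts over that side. GMP 20 gave 83.9% of these reads, and the sum was 2.75 CPM without it, in place of 16.7 CPM. The basophil cytokine Il4 stayed under the filter, at 0.573 and 1.38 CPM.

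None of 11 genes listed for mast cells alone passed the filter. Gzmb, granzyme B, stood at 1.1 CPM in Gata2-positive and 0.965 CPM in Gata2-low cells, where the highest single cells had 3.7 and 2.69 CPM. The chymase gene Cma1 was at 0.286 and 0.193 CPM, 7 of the 11 genes had no read at all, and Mitf, a transcription factor of mast cells, was at 0.205 and 2.35 CPM. In the 89 BMCP, whose reads summed to 781 CPM of Ms4a2, Gzmb was at 6516 CPM with no cell under 30.4 CPM. The 7 Gata2-positive GMP with Ms4a2, each above that BMCP sum, held Gzmb at 2.72 CPM or less.

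Cell by cell, the Gata2-positive GMP spread over a range and were not of a single kind. GMP 24 and GMP 30, with the most Gata2, carried Cpa3 at 2185 and 2699 CPM, Ms4a2 at 1554 and 2312 CPM and Gata1 at 473 and 1476 CPM, beside Elane, neutrophil elastase, at 19.7 and 6.72 CPM. GMP 20 had the highest Ms4a2, 2581 CPM, the highest Slc18a2, 2707 CPM, and 25.6 CPM of Elane. GMP 3 and GMP 21 combined Ms4a2 at 1707 and 795 CPM with Mpo at 20021 and 8093 CPM. GMP 12 carried Ms4a2 at 1391 CPM with only 274 CPM of Gata2 and with 6640.1 CPM of Mpo.

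At the other end, 5 Gata2-positive cells stayed under 100 CPM of Cpa3. GMP 7, 18, 19 and 25 held between 1.95 and 7.32 CPM of it and Mpo between 20962 and 49243 CPM. GMP 8, the shallow cell, held 69.1 CPM of Cpa3 and 860.3 CPM of Ms4a2. GMP 2, 4, 31, 40, 45 and 47 carried Cpa3, between 458 and 2524 CPM, with no more than 1.1 CPM of Ms4a2 and with Mpo between 15801 and 54856 CPM. Cpa3 was thus read in many cells in which Ms4a2 was not.

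**Figure D2:**
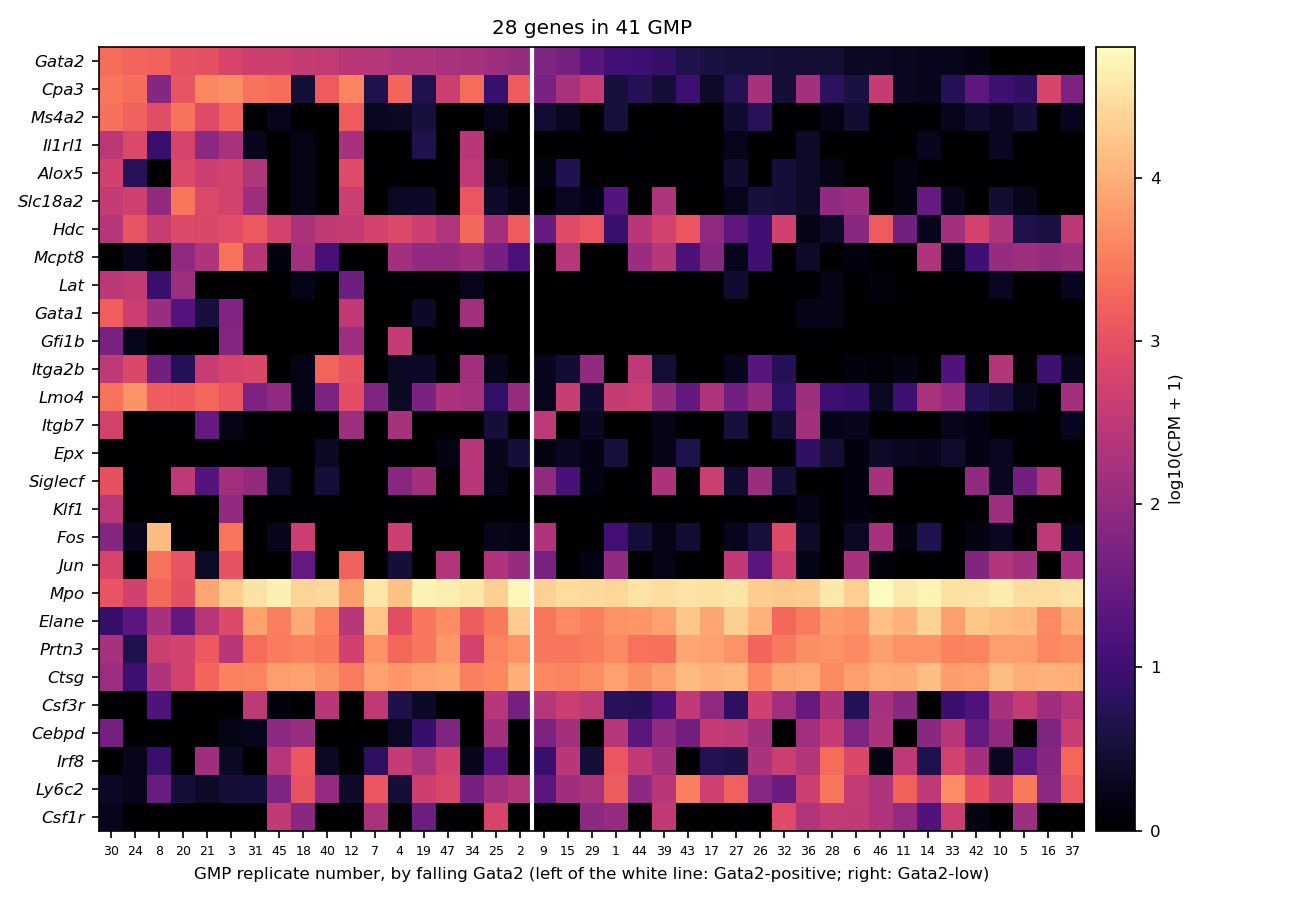
Level of 28 genes (rows) in the 41 GMP (columns, by replicate number) as log10 of CPM plus 1, ordered by falling Gata2 from left to right, with Gata2-positive cells left of the white line and Gata2-low cells right of it. Ms4a2 is bright in the 6 leftmost columns and in GMP 12. Il1rl1, Alox5 and Gata1 are each bright in only some of the 6 leftmost columns and in GMP 12 and 34, and Alox5 also in GMP 31. Mpo and Elane are darkest in GMP 30, 24, 8 and 20.

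The azurophil granule genes, which mark early neutrophil and monocyte progenitors, were read on both sides and were lower in Gata2-positive cells by less than 2-fold in the sum. All 12 members passed the filter and 11 had a negative log2 ratio, with Elane alone past 2-fold and a list median of -0.45. Elane ran at 6.72, 2094 and 19302 CPM in Gata2-positive cells and at 1955, 7580.0 and 23149.7 CPM in Gata2-low cells, with sums of 4395 and 9597 CPM and a log2 ratio of -1.13 that was -0.97, inside 2-fold, without GMP 30. The sides overlapped, but no Gata2-low cell was under 1955 CPM. Proteinase 3 (Prtn3) and cathepsin G (Ctsg) had log2 ratios of -0.94 and -0.76, and the granule serine protease gene Prss57 was the member above 0, at 0.18.

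Mpo stood at 509, 22681 and 54856 CPM in Gata2-positive cells and at 18254, 32718 and 68277 CPM in Gata2-low cells. The upper ends overlapped, and 7 Gata2-positive cells (GMP 4, 8, 12, 20, 21, 24 and 30) lay under the lowest Gata2-low cell. Under 2000 CPM were GMP 8, 20, 24 and 30. Sums were 26599.5 and 35339 CPM, a log2 ratio of -0.41, which was -0.12 without those 4 cells.

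Levels within the Gata2-positive side are given by the height of Gata2 as a description only, since Gata2 chose the side and the cut was chosen after the values were seen. The side was divided into the 6 cells with 500 CPM or more of Gata2 (GMP 3, 8, 20, 21, 24 and 30) and the 12 cells with 100 to 500 CPM, each set against the same 23 Gata2-low cells. Of the 10515 genes, 20.1% were higher by 2-fold or more at 500 CPM or more of Gata2 and 36% were lower by as much, and the shares were 14.5% and 19.6% at 100 to 500 CPM, with medians over all genes of -0.34 and -0.06. Lists are to be read against those values. Spike-in reads were a median of 9.22% at 500 CPM or more, 6.62% at 100 to 500 CPM and 5.90% in Gata2-low cells, and the part of RNA content in these differences was not tested. The basophil and mast cell genes had medians of 4.83 and 2.30, and 9 and 8 of 11 members were at least 2-fold higher. The azurophil genes had medians of -1.78 and -0.25, with 7 and 0 of 12 members at least 2-fold lower.

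Mpo summed to 6566 CPM at 500 CPM or more of Gata2, 34960.1 CPM at 100 to 500 CPM and 35339 CPM in Gata2-low cells. Elane summed to 227, 6135 and 9597 CPM in the same order. Cpa3 summed to 3099, 1355 and 108 CPM, so that it was well above the Gata2-low level at both heights of Gata2. Ms4a2 summed to 1834, 112 and 0.804 CPM, with all of the middle value but a trace from GMP 12.

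Over the 18 Gata2-positive cells, Spearman's rho with Gata2 was -0.73 for Mpo, -0.74 for Ctsg, -0.71 for Prtn3 and -0.67 for Elane. It was 0.67 for Ms4a2, 0.64 for Lmo4, 0.63 for Il1rl1 and 0.41 for Cpa3. The other basophil and mast cell genes past the filter ranged widely. Csf2rb2 was at 0.68, Slc18a2 at 0.43, Alox5 at 0.42, Srgn at 0.28, Cyp11a1 at 0.17, Hdc at 0.04 and Hgf at -0.27. The basophil genes Mcpt8, Prss34, Il6 and Cd200r3 were at -0.15, -0.07, -0.20 and -0.05. Over 10402 genes with reads that vary in these cells, the median was -0.05, with 5th and 95th percentiles of -0.47 and 0.38. Without the 2 cells farthest from the median of Gata2, GMP 24 and 30, the values were -0.62 for Mpo, -0.53 for Elane, 0.55 for Ms4a2 and 0.30 for Cpa3 over 16 cells. Over the 23 Gata2-low cells it was -0.38 for Mpo, -0.43 for Elane, -0.05 for Ms4a2, -0.21 for Il1rl1 and -0.01 for Cpa3. These are descriptions of cells whose mouse is unknown, and all values come from the same libraries as Gata2. Gata2 had a rho of -0.09 with a cell's counts and of 0.38 with its share of spike-in reads, a measure that grows as a cell gives less RNA, and the part of depth in the relation was not tested.

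**Figure D3:**
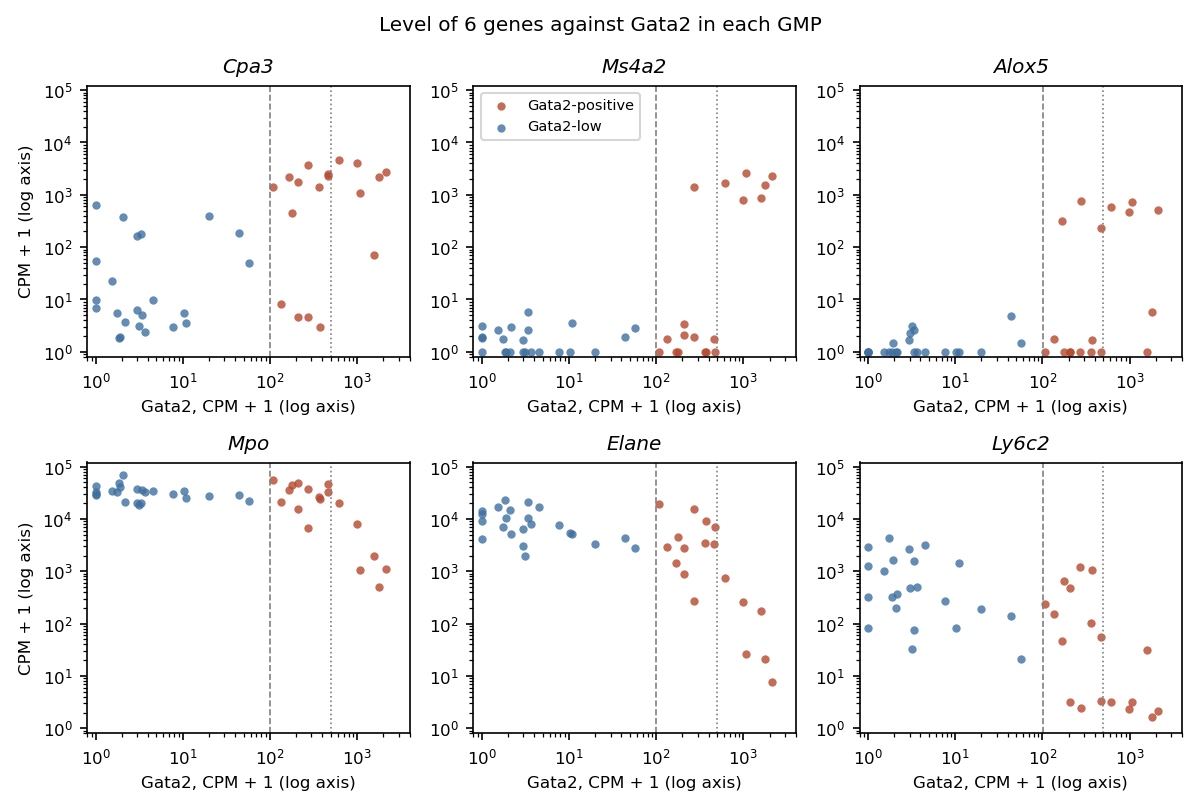
Level of 6 genes against Gata2 in each GMP (CPM plus 1, log axes), with Gata2-positive cells in red and Gata2-low cells in blue, the dashed line at 100 CPM of Gata2 and the dotted line at 500 CPM. Ms4a2 is on in 6 of 6 cells right of the dotted line and in 1 of 12 between the lines, and Mpo and Elane are lowest right of the dotted line.

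Among the GATA family and its partners, 10 of 12 members passed the filter, with a median of 0.14. Past 2-fold, 2 of the 10 were higher, Gata1 and Gfi1b, and 1, Lyl1, was lower, where all genes gave 16.2% and 15.8%. Gata1 and Gfi1b passed the filter only through Gata2-positive cells, so it set their direction. That both were stable to leaving out a cell is therefore no support. Gata1 passed 100 CPM in GMP 8, 12, 24, 30 and 34, at 115, 340.2, 473, 1476 and 152 CPM, and no Gata2-low cell passed 0.669 CPM. The sums were 214 and 0.0643 CPM, of which GMP 30 gave 71.4%, and without it the Gata2-positive sum was 68.4 CPM. Gfi1b, a repressor of erythroid and megakaryocytic cells, was highest in GMP 4, at 376 CPM, and GMP 12, at 128 CPM, and had no read in Gata2-low cells, which makes its sum of 31.5 CPM at least 327-fold higher than the floor. Without GMP 4 that sum was 18.3 CPM.

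The partners that join GATA factors in complexes did not share this pattern. Lyl1, a helix-loop-helix factor, was lower in Gata2-positive cells, at 134 against 281 CPM, though its log2 ratio of -1.06 was -0.90 without GMP 30, and passed 100 CPM in 10 of 18 and 20 of 23 cells. Within 2-fold were Lmo2, at 286 and 387 CPM, and the helix-loop-helix factor Tal1, at 29.6 and 19.5 CPM. Runx1 was at 229 and 117 CPM with a log2 ratio of 0.97, just inside 2-fold, and the GATA cofactor Zfpm1 was at 11.6 and 12.5 CPM.

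Of 18 myeloid transcription factors 16 passed the filter, with a median of -0.37. Past 2-fold, 1 was higher and 4 were lower, of 16, where all genes give 16.2% and 15.8%. The higher one, the leucine zipper factor Cebpg, was at 77.2 against 33.7 CPM, and its log2 ratio of 1.17 was 0.46 without GMP 47. Of the lower ones Cebpd was stable to leaving out a cell, and Gfi1 and Klf6 were not. Id1 passed the filter only through Gata2-low cells, so the filter set its direction, and that it was stable is no support. Spi1 (PU.1) and Cebpa, which drive the granulocyte and monocyte programme, were nearly equal, at 401 and 129 CPM in Gata2-positive and 417 and 126 CPM in Gata2-low cells. Cebpd stood at 35.3 against 132 CPM and passed 100 CPM in 2 of 18 and 10 of 23 cells. The neutrophil factor Gfi1 was at 35.6 against 73.1 CPM, with 62.6% of the Gata2-positive reads in GMP 18, and its log2 ratio of -1.02 was -0.78 without GMP 42. Irf8, the factor of monocytes and dendritic cells, passed 100 CPM in 6 of 18 and 13 of 23 cells, with sums of 179 and 348 CPM, just inside 2-fold.

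Of 18 cytokine receptors 13 passed the filter, 3 of them higher by 2-fold or more and 3 lower by as much, near the 16.2% and 15.8% of all genes, with a median of -0.13. Besides Il1rl1, the higher ones were both chains of the interleukin-3 receptor. Il3ra was at 99.1 against 47.4 CPM and passed 100 CPM in 9 of 18 and 5 of 23 cells, and its log2 ratio of 1.05 was 0.78 without GMP 45. Csf2rb, the beta chain shared with the GM-CSF receptor, was at 219 against 89.6 CPM, though reads may be divided between it and its near copy Csf2rb2, which was at 10.4 and 7.72 CPM. The lower ones were Csf3r, the G-CSF receptor, Csf2ra, the alpha chain of the GM-CSF receptor, and Il4ra. Csf3r was stable to leaving out a cell, while Csf2ra was at -0.87 without GMP 33 and Il4ra at -0.77 without GMP 14. Csf3r passed 100 CPM in 4 of 18 Gata2-positive cells and 12 of 23 Gata2-low cells, with sums of 57.8 and 141 CPM and medians of 0.193 and 139 CPM. None of the 6 cells with 500 CPM or more of Gata2 passed 15.4 CPM of it. Csf1r, the M-CSF receptor, was at 85.1 and 149 CPM and passed 100 CPM in 3 of 18 and 10 of 23 cells.

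Signalling genes downstream of the IgE receptor were read on both sides. All 12 passed the filter, and 2 were at least 2-fold higher, a share close to the 16.2% of all genes, with a median of 0.45. The adaptor Lat was above 100 CPM in GMP 20, 24 and 30, at 126, 362 and 291 CPM, and no Gata2-low cell passed 1.61 CPM. Its sums were 56.4 and 0.193 CPM, and 29.3 CPM in Gata2-positive cells without GMP 30. Lat thus passed the filter only through Gata2-positive cells, so the filter set its direction. Inpp5d, the lipid phosphatase SHIP, was at 209 and 97.6 CPM, with a log2 ratio of 1.09 that was 0.83 without GMP 30, and the kinases Syk and Lyn were at 128 and 72.3 CPM in Gata2-positive and 137 and 85.5 CPM in Gata2-low cells. Of the lipid mediator genes, Alox5ap, the partner of Alox5, was at 245 and 275 CPM, so that Alox5 differed and its partner did not reach 2-fold.

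Genes of the proteins used in the sort gave 6 of 7 past the filter and a median of 0.05. Itgb7, the integrin beta7 by which BMCP were gated out of the GMP, was above 100 CPM in GMP 4, 12 and 30 on the Gata2-positive side and in GMP 9 and 36 on the Gata2-low side. Its sums were 72.5 and 29.7 CPM, but GMP 30 held 559.8 CPM and without it the log2 ratio was -0.83 in place of 1.26. The BMCP sum was 1433 CPM. Itga4, the alpha chain that pairs with it, was above 100 CPM in 12 of 18 and 7 of 23 cells, with sums of 246 and 78.6 CPM, and its log2 ratio of 1.63 was 0.98, inside 2-fold, without GMP 30. Of the 7 cells with Ms4a2, all but GMP 12 and GMP 30 held 28.9 CPM or less of Itgb7.

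Several monocyte and dendritic cell genes were lower in Gata2-positive cells. Of 12 members 8 passed the filter. Beyond 2-fold, 4 were lower in Gata2-positive cells and 1 was higher, where all genes gave 15.8% and 16.2%. The list had a median of -1.47. Over all 12 members, with no filter, that median was -0.27. The 5 genes past 2-fold were stable to leaving out a cell, where all genes gave 9.00% for lower and 6.80% for higher. Cx3cr1 passed the filter only through Gata2-positive cells and Mpeg1 only through Gata2-low cells, so the filter set their direction. That both were stable is therefore no support. Ly6c2, a surface antigen of monocytes and their precursors, ran at 0.681, 38.1 and 1203 CPM in Gata2-positive and 20.4, 368 and 4398 CPM in Gata2-low cells. Its sums were 237 and 955 CPM, a log2 ratio of -2.01, and 8 Gata2-positive cells with 3 CPM or less lay under the lowest Gata2-low cell. Reads of Ly6c2 may be divided with its near copy Ly6c1. Ly86, which pairs with a toll-like receptor, passed 100 CPM in 1 of 18 and 9 of 23 cells, with sums of 27.9 and 114 CPM, and GMP 47 gave 99.6% of the Gata2-positive reads, so that the log2 ratio of -1.99 was -6.66 without it. The coagulation factor gene F13a1 was at 25.9 against 137 CPM, or 10.2 CPM in Gata2-positive cells without GMP 25. Cx3cr1, the fractalkine receptor, went the other way, at 33.1 against 0.579 CPM, with 71.7% in GMP 30 and 10.5 CPM without it, and its BMCP sum was 293 CPM.

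Of 12 neutrophil programme genes 6 passed the filter. Past 2-fold, 3 of the 6 were lower and 1, Ngp, was higher, where all genes gave 15.8% and 16.2%. The list median was -0.82, or 0 over all 12 members with no filter. Ngp passed the filter only through Gata2-positive cells and S100a8 only through Gata2-low cells, so the filter set their direction. GMP 30 gave 99.7% of the Gata2-positive reads of Ngp, whose log2 ratio of 3.92 was -0.07 without it. Of the 3 lower ones Csf3r was stable to leaving out a cell, and Gfi1 was not. That S100a8 was stable as well is no support. Cebpe, which drives the later granules, passed 100 CPM in 3 of 18 and 6 of 23 cells, with sums of 51.3 and 79.4 CPM, and the later granule genes Ltf, Camp, Mmp8 and Cd177 had no read on either side. Of 8 macrophage genes 5 of the 6 past the filter were at least 2-fold lower, where all genes gave 15.8%. These 5 passed the filter only through Gata2-low cells, so it set their direction. The count also rests on few cells. GMP 29, a Gata2-low cell, gave 99.8% of the Gata2-low reads of the complement gene C1qb. Without that cell the log2 ratio of C1qb was -0.04 in place of -5.38.

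Markers of other lineages were scarce. No lymphoid gene of 10 passed the filter. Of 13 erythroid genes 4 passed it. Of these, 3 were at least 2-fold higher and none 2-fold lower, where all genes gave 16.2% and 15.8%. Among the 3 were Blvrb, biliverdin reductase B, at 61.2 against 6.05 CPM, and the erythroid factor Klf1, at 38.2 against 4.31 CPM. Klf1 passed the filter only through Gata2-positive cells, so the filter set its direction. Klf1 was read in GMP 30 and GMP 3, at 297 and 98.5 CPM, and on the other side in GMP 10, at 126 CPM, and its log2 ratio of 2.88 was 0.80 without GMP 30. The globin genes stayed under the filter.

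Of 9 megakaryocyte genes 2, Itga2b and Itgb3, passed the filter, and both were at least 2-fold higher, where all genes gave 16.2%. Itga2b, the CD41 integrin of megakaryocytes and early progenitors, was above 100 CPM in 8 Gata2-positive cells (GMP 3, 12, 21, 24, 30, 31, 34 and 40) and in 2 Gata2-low cells (GMP 10 and 44), with sums of 296 and 19.6 CPM and a log2 ratio of 3.85 that was stable to leaving out a cell. Its highest level, 1721 CPM in GMP 40, came without Ms4a2, and the platelet genes Pf4 and Ppbp had no read. Itgb3, the platelet integrin beta chain, was at 55.9 against 15.5 CPM, but GMP 45 gave 81.1% of the Gata2-positive reads, and without it the sum was 11.8 CPM and the log2 ratio was -0.36 in place of 1.79.

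Of 10 eosinophil genes 2 passed the filter, Epx and Siglecf. The granule genes Epx, eosinophil peroxidase, and Prg2, major basic protein, were high in a single cell. GMP 34 held 265 CPM of Epx and 85.8 CPM of Prg2, and no other cell of the 41 passed 6.02 CPM of Epx or 2.16 CPM of Prg2. The same cell carried Prss34, Il1rl1, Alox5, Gata1 and 1140.4 CPM of Slc18a2, the highest Hdc of all, 1982 CPM, and Mpo at 36158 CPM. It held 1317038 nuclear-encoded counts and 7200 genes, near the medians of its side. Siglecf was above 100 CPM in 5 cells of each side and without GMP 30 its log2 ratio was -0.32 in place of 1.26. Prg3, also an eosinophil granule gene, and the receptor gene Il5ra went the other way. Neither had a read in Gata2-positive cells. Their Gata2-low sums were 1.22 and 2.25 CPM, all from GMP 16 for Prg3 and from GMP 39 for Il5ra.

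Stem and multipotent progenitor genes gave 7 of 10 past the filter and a median of 0.18. Of these, 2 were higher by 2-fold or more and none lower by as much, where all genes gave 16.2% and 15.8%. Adgrl4 was at 250 against 105 CPM. Its log2 ratio of 1.25 was stable to leaving out a cell, with 1.02 at the lowest, without GMP 25. At 500 CPM or more of Gata2 its sum was under that of Gata2-low cells. At 100 to 500 CPM its sum was 326 CPM. Meis1, a homeobox factor of stem cells, passed 100 CPM in 4 of 18 and 3 of 23 cells and had sums of 67.3 and 28.2 CPM, with a log2 ratio of 1.23 that was 0.52 without GMP 7, while Hoxa9 was at 70.5 and 74.1 CPM.

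Cell cycle genes were read on both sides. Of 12 S phase genes 11 had a positive log2 ratio that stayed within 2-fold, with a median of 0.55. The replication helicase genes Mcm2 and Mcm6 were at 661 and 972 CPM in Gata2-positive and 346 and 603 CPM in Gata2-low cells, and Rrm1, a subunit of ribonucleotide reductase, went the other way, at 152 against 325 CPM, with a log2 ratio of -1.09 that was -0.93 without GMP 45. Of 12 genes of G2 and M phase 11 had a negative log2 ratio. Past 2-fold, 3 of the 12 were lower and none higher, where all genes gave 15.8% and 16.2%. The median was -0.53 and was 0.04 without GMP 6, a Gata2-low cell. Cyclin B1 (Ccnb1), at 4.95 against 33.4 CPM, passed the filter only through Gata2-low cells, so the filter set its direction.

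The immediate early genes, which a stimulus or cell handling induces within minutes, differed through few cells. Of 12 members 8 passed the filter. Of these, 4 were at least 2-fold higher and none 2-fold lower, where all genes gave 16.2% and 15.8%. The median was 1.04, or -0.03 over all 12 members with no filter. Fos and Jun were stable to leaving out a cell and Fosb was not. Egr1 and Fosb passed the filter only through Gata2-positive cells, so it set their direction. That Egr1 was stable as well is therefore no support. Fos was above 100 CPM in 4 cells of each side, with 13388 CPM in GMP 8 and 2642 CPM in GMP 3. The sums were 322 and 54.2 CPM, and the log2 ratio of 2.55 was 1.29 without GMP 3 and 2.20 without GMP 8. Egr1 passed 100 CPM in GMP 3, 8 and 12, 3 cells that also carried Ms4a2, and in no Gata2-low cell. GMP 24, which carried Ms4a2 too, had 0.681 CPM of Fos and 0 of Jun.

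Glycolysis genes were mostly within 2-fold, with 13 of 13 past the filter, hexokinase 2 (Hk2) alone past 2-fold, at 71.6 against 29.2 CPM with a log2 ratio of 1.27 that was 0.49 without GMP 47, and a median of -0.15. Of 8 antigen presentation genes 7 passed, and the class II genes H2-Aa and H2-Eb1 were at least 2-fold higher, where all genes gave 16.2%. Both passed the filter only through Gata2-positive cells, so it set their direction, and through 1 cell each. GMP 30 gave every read of H2-Aa. GMP 45 gave 93.9% of the Gata2-positive reads of H2-Eb1, whose log2 ratio of 3.09 was 0.15 without it. The class I gene H2-K1 was at 1268 and 1622 CPM.

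**Figure D4:**
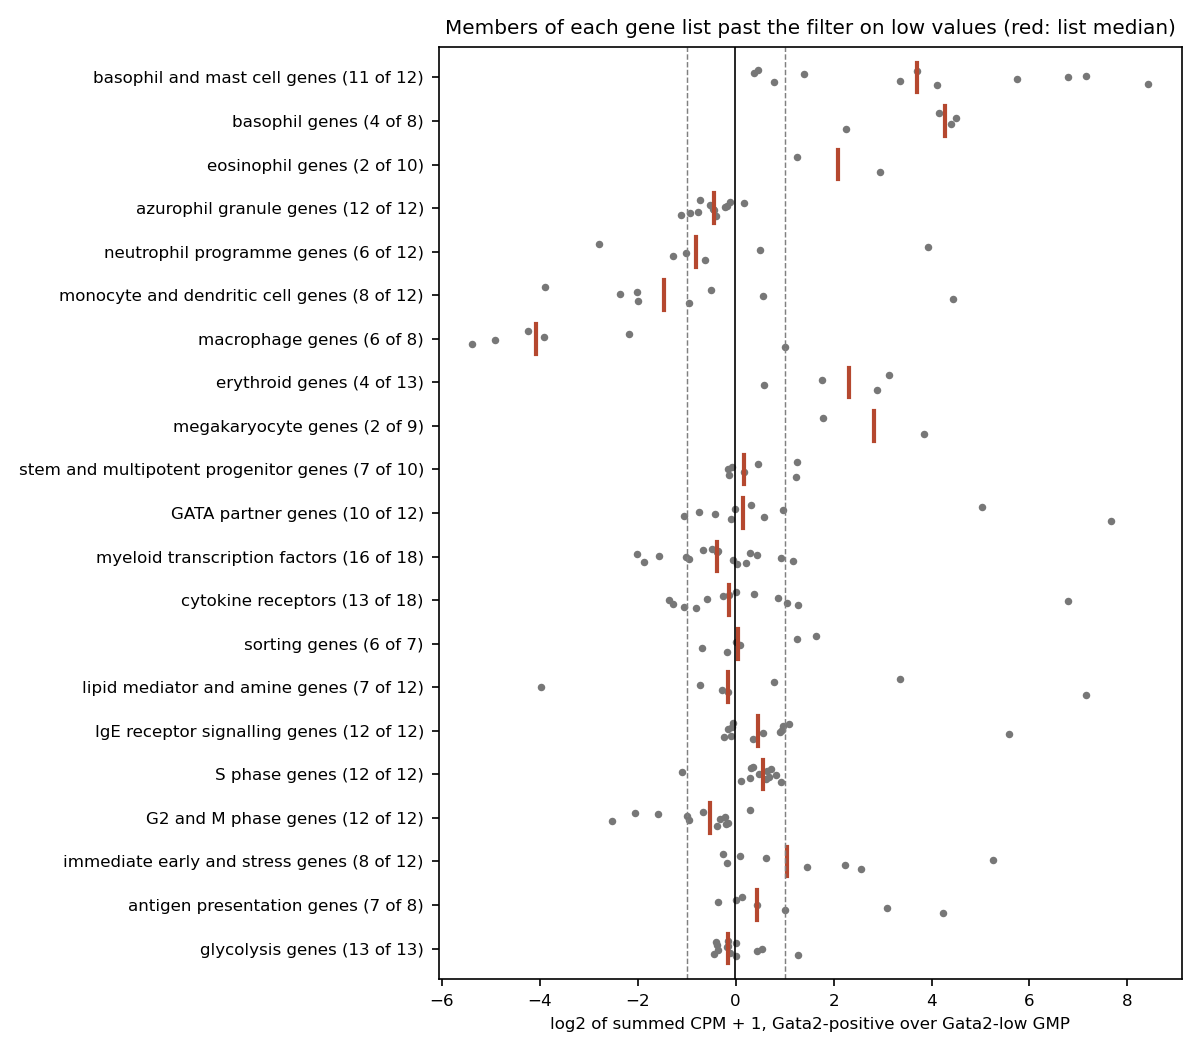
Log2 ratio of summed CPM plus 1 in Gata2-positive over Gata2-low GMP for the members of 21 gene lists that passed the filter on low values (grey points; numbers past the filter of all members beside each name), with the list median in red, the median of all 10515 genes as the solid line and 2-fold as dashed lines. Basophil and mast cell genes lie to the right with a median of 3.70 and monocyte and dendritic cell genes to the left with -1.47.

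A rule of size picked genes that differed through many cells: at least 20 CPM on the higher side, 2 or more thinned reads in at least 50% of its cells, no cell with 50% or more of the reads, and at least 2-fold in the median over cells too. It was met by 624 genes on the higher and 1119 on the lower side, of which the 12 largest ratios each are named. Cpa3 led the higher side, followed by Nudt7, a peroxisomal coenzyme A hydrolase, and Lmo4. Nudt7 was at 116 against 6.37 CPM and passed 100 CPM in 5 of 18 and 1 of 23 cells, with 47.3% of its reads in GMP 24.

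Lpcat2, an enzyme that makes platelet-activating factor, was above 100 CPM in 10 of 18 and 2 of 23 cells, with sums of 218 and 26.1 CPM. Slc7a8, an amino acid transporter, passed 100 CPM in 8 of 18 and 1 of 23 cells, and Chst15, which sulphates the chondroitin chains of mast cell granules, in 5 of 18 and 1 of 23 cells. Cdc42se2, an effector of the GTPase Cdc42, was above 100 CPM in 14 of 18 and 4 of 23 cells, with a log2 ratio of 2.85. Zmpste24, the protease that matures lamin A, was at 83.6 and 7.66 CPM, Wdr41 at 133 and 12.9 CPM and Slfn8 at 107 and 10.7 CPM. Naa80, which acetylates actin, and Aida had log2 ratios of 3.31 and 3.12.

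On the lower side Tmem42, a membrane protein gene, had the lowest ratio, -4.35, at 1.02 against 40.2 CPM, and passed 100 CPM in 0 of 18 and 4 of 23 cells. Mettl16, an RNA adenosine methyltransferase, was at 5.24 against 99.2 CPM and passed 100 CPM in 0 of 18 and 7 of 23 cells. Tbrg4, a mitochondrial RNA-binding protein, was at 13.5 against 164 CPM and passed 100 CPM in 1 of 18 and 12 of 23 cells. The mitochondrial seryl-tRNA synthetase gene Sars2 was at 3.97 against 69.4 CPM, with 95.9% of the Gata2-positive reads in GMP 20, and Bcr at 2.05 against 41.6 CPM. Mppe1, Tbc1d5, Tmem128, Tspan2, Pdzd11, B4galt6 and Orc4, a subunit of the origin recognition complex, had log2 ratios between -3.01 and -2.46. Leaving out any 1 cell kept the 12 higher genes between 2.42 and 4.94 and the 12 lower genes between -5.91 and -2.25. The rule took the largest ratios of these same data and barred genes that rest on 1 cell. These ranges were thus largely fixed by the choice and are no support.

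The promoters of the first 2 genes on each side by this rule, other than Cpa3 above, are shown for comparison with the windows of Cpa3 and Ms4a2. They run over the same distances, on the plus strand at chr8:114133368-114133667 for Nudt7, chr9:123021076-123021375 for Tmem42 and chr11:74770613-74770912 for Mettl16.
Nudt7: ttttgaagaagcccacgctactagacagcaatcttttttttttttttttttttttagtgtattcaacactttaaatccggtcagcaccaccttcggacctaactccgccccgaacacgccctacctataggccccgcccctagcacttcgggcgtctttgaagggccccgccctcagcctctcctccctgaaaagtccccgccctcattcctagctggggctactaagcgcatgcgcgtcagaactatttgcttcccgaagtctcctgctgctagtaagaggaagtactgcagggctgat
Tmem42: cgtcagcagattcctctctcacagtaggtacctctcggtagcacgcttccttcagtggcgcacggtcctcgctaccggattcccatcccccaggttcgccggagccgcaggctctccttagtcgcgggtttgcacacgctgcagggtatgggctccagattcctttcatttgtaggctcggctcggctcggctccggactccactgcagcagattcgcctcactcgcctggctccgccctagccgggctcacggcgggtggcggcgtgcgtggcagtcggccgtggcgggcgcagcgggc
Mettl16: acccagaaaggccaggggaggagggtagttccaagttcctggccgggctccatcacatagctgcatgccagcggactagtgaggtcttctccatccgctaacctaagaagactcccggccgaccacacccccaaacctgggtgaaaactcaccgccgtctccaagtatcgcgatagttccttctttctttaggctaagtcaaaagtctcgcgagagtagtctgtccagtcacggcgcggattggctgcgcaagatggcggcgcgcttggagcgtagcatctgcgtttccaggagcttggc
None of the 3 holds a match to the letters marked in Cpa3 and Ms4a2. Of the 12 higher genes 12 had a window and 3 of these held a match, and of the 12 lower genes 10 had one and 2 held a match, beside 29.8% of all windows.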

How the data were processed

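The deposited values were raw counts of reads per gene, 1 column per cell. Per the submitters' processing notes, the authors used GSNAP 2015-09-29, HTSeq 0.5.3p3 and mm10. The sources used here name no release of the gene annotation. Per the labels' protocols, libraries were amplified with 23 PCR cycles and read as single 50-base reads, with no molecular identifiers and no strand mark named, so counting limits understate the error, and antisense or near-identical genes cannot be told apart. Of the 46078 gene rows 45143 had a symbol, and rows that name no gene held 11.1% (no feature) and 6.03% (ambiguous) of the reads of the kept GMP, beside 27.5% not aligned. These rows, 92 spike-ins and 37 mitochondrial genes stayed out of CPM.

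Of 47 GMP, 41 had at least 50000 nuclear-encoded counts, at most 10% mitochondrial counts and at most 50% spike-ins. Left out were GMP 13, 22 and 23 (12.9%, 11.8% and 10.1% mitochondrial), GMP 35 and 38 (4803 and 4838 counts) and GMP 41 (71.5% mitochondrial), with 3 reads of Gata2 or fewer each. No 2 cells had identical counts. Reads were summed per side, and log2 ratios took a pseudocount of 1 CPM after a filter of 5 CPM in pooled reads. A difference counts as such from 2-fold, with no test, since each side is 1 sample. Poisson limits are exact, and detection was counted after thinning each cell once to 200000 reads. Which genes just meet the rule of size depends on that draw.

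The text names members of 23 gene lists and the 12 largest ratios in each direction by the rule of size. The sides, lists and rule were chosen with earlier results of these data known. The levels of Gata2 within the positive side and the leaving out of 4 cells with low Mpo were chosen after seeing the data. The calculation was tested on simulated data. Alternatives were each GMP left out in turn (the Gata2-low ones added after seeing the data) and 15 other settings. Tables were handled with pandas 2.3.3 and numpy 2.4.6, limits computed with scipy 1.17.1 and figures drawn with matplotlib 3.10.9, under Python 3.11.15.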

Additional observations from a re-analysis of the deposited data

How the results depend on the processing

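No paired analysis was possible because both sides are cells of the same GMP numbering, no number joins a cell of one side to a cell of the other, and no test was made. Leaving out each cell in turn gave 1632 to 1810 genes at least 2-fold higher and 1625 to 1761 lower. The median of the eosinophil genes ran from 1.20 to 2.30 and that of the G2 and M phase genes from -1.08 to 0.036. Siglecf ran from -0.32 (without GMP 30) to 1.63, Itgb7 from -0.83 (without GMP 30) to 2.93, Prg2 from -0.046 (without GMP 34) to 2.58 and Epx from -0.64 (without GMP 34) to 3.13.

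Below are, by setting and as log2 ratios, the list medians that left the rank limits over their members, the counts of genes that moved by over 1.5 times, and the genes and lists past 2-fold that changed sign. With the median of the cells' CPM in place of sums, 983 genes were at least 2-fold higher, the medians of the basophil, erythroid and G2 and M phase genes were 0, that of the eosinophil genes was -0.022, and Hgf, Epx and Fos were at -0.29, -0.62 and -0.61. A pseudocount of 10 gave 1073 lower genes and medians of 1.70 for basophil and 1.15 for eosinophil genes. With no filter 2558 genes were higher and 2636 lower, and the basophil, eosinophil and immediate early medians were 1.12, 0 and -0.026. A filter of 20 CPM left 980 and 843. Scaling to spike-ins put the median of all genes at -0.37, the azurophil genes at -0.80, the S phase genes at 0.20 and the glycolysis genes at -0.50. Moving the threshold to 50 CPM gave -0.016 for the G2 and M phase genes, and 200 CPM gave 0.15 for them, -0.88 for the eosinophil genes, -2.005 for Prg2 and -3.41 for Epx. At 500 CPM or more of Gata2, 3789 genes were lower, and medians were 4.63 (basophil), 0.85 (eosinophil), -1.78 (azurophil), -3.75 (neutrophil), -5.49 (monocyte and dendritic cell), 0.19 (megakaryocyte), -0.64 (stem), -0.047 (G2 and M phase) and -0.87 (glycolysis), with Prg2 at -0.046 and Epx at -1.02. At 100 to 500 CPM the basophil genes were at 1.54, Siglecf at -0.68, Klf1 at -2.41 and Itgb7 at -0.60. Without the 4 cells with little Mpo, Siglecf was at -0.37 and Itgb7 at -0.70. Limits of 200000 counts and 5% mitochondrial counts left only 4 against 1 cells and gave 4283 higher genes. Its medians were 4.61 (basophil), 3.95 (eosinophil), -1.55 (azurophil), -5.14 (neutrophil), 3.92 (erythroid), 0.70 (myeloid transcription factors), 2.60 (IgE signalling), 1.89 (S phase), 6.13 (G2 and M phase) and -0.48 (glycolysis). Its sign differed for Mitf (0.17), Rrm1 (1.14), Fos (-2.79), Tmem42 (1.98), Bcr (0.17), Tbc1d5 (4.56), Tspan2 (0.68) and Pdzd11 (5.22). The cause of these shifts was not tested. Of 1174 list medians recomputed, 40 lay on the other side of 0, from 11 of 21 lists: sorting genes, cytokine receptors, GATA partners, lipid mediator and amine, stem, G2 and M phase, eosinophil, glycolysis, antigen presentation, immediate early genes and myeloid transcription factors. Of 5656 values of single genes, 1534 moved past their Poisson limits and 97 lay on the other side of 0, from 33 genes. The mast cell and lymphoid lists had no member past the filter and so no median. Depth limits genes read in few cells: a count of 0 allows up to 0.123 CPM over the Gata2-positive and 0.0965 CPM over the Gata2-low side.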
